A study of Mus musculus with 22 samples.

Results

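Type I interferon response genes are the genes that cells switch on when interferon alpha or beta binds its receptor. The 9 genes described here (Ifit1, Ifit2, Ifit3, Isg15, Rsad2, Bst2, Stat2, Irf9 and Irf7) were taken by symbol from the 49670 Ensembl genes present in both deposited tables, and all 9 were found. RNA from whole right ventricle (RV) and left ventricle (LV) tissue of CD1 mice, an outbred stock, was sequenced in bulk. The RV nPAB and LV nPAB groups came from 6 mice that had neonatal pulmonary artery banding (nPAB) with a 30G needle on postnatal day 1, an operation that constricts the artery leaving the RV so that it pumps against a higher pressure. The RV Sham and LV Sham groups came from 5 mice sham-operated on the same day, and all hearts were taken 7 days after surgery. All 22 libraries carried batch label 1, and the labels state neither sex nor litter, so p-values measure the spread between these animals only.

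The type I interferon receptor, made of Ifnar1 and Ifnar2, signals through the kinases Jak1 and Tyk2. These lead to phosphorylation of Stat2, which acts with Irf9 in a complex that binds interferon-stimulated response elements (ISREs) before its target genes. Irf7 is itself a target and raises further interferon production. The remaining genes encode antiviral effectors. In the heart the pathway is known mainly from viral myocarditis and from macrophages that take up DNA of dying cells after infarction.

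The libraries held 7.11 to 11.3 M whole reads each, recovered from the deposited normalized counts. All 10 ventricular cardiomyocyte markers were detected in each group. Reads of Xist and of a Y-linked gene gave the same sex for both ventricles in 9 of the 11 mice, whereas in nPAB mice 6 and 7 the libraries labelled RV and LV differed in sex. Sham mouse 13 stood apart in the genes that answer interferon gamma, holding the highest Sham count of 14 of 16 such genes in the RV and of 11 of 15 in the LV. Where leaving out nPAB mice 6 and 7, or Sham mouse 13, ended the call of a gene described with its values, that is said beside it. In bulk RNA, fewer cells of a type and less RNA per cell cannot be told apart.

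The promoters of the response genes showed where the letters of an ISRE lay. They were read with the fold changes known, and any part of these letters in the fold changes was not tested. RefSeq windows (build GRCm38.p6, 250 bases before to 50 after an annotated start) were found for all 9 genes, with a pair of windows each for Ifit2 and Irf9. The ISRE-like letters GAAANNGAAA, or TTTCNNTTTC on the other strand, with overlapping matches counted, occurred in a window of 6 of the 9 genes. They occurred in 3.44% of all 32851 windows, and in a window of 3.99% of all 27025 genes. Among other interferon-stimulated genes with a window they occurred in 16 of 41. The stretches below run 5′ to 3′ on the gene's own strand and stop before the transcript start. Capitals mark the ISRE-like letters.
Ifit1, chr19:34640760-34640838, plus strand: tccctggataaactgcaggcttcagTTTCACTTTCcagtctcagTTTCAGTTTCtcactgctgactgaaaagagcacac
Ifit3, chr19:34583348-34583441, plus strand: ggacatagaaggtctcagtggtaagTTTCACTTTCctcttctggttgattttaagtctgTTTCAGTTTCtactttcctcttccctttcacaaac
Isg15, chr4:156200850-156200921, minus strand: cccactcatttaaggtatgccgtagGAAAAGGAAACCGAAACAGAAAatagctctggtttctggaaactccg
Bst2, chr8:71537562-71537627, minus strand: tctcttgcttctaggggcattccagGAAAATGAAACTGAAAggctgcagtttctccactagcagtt
Stat2, chr10:128270251-128270310, plus strand: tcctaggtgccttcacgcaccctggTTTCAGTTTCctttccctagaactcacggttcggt
Rsad2, chr12:26456538-26456597, minus strand: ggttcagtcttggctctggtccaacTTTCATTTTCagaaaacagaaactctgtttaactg
Ifit2, chr19:34550444-34550693, plus strand: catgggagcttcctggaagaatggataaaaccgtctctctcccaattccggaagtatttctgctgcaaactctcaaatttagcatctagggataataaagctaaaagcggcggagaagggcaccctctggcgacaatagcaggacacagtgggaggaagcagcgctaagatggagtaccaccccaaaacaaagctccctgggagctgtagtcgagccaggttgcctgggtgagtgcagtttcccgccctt

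Isg15 held 3 overlapping matches, Bst2 2 overlapping matches, Ifit1 and Ifit3 2 separate matches each, and Stat2 and Rsad2 1 each. Neither window of Ifit2, neither window of Irf9 and not that of Irf7 held these letters, which says only that they are not in these windows. The letters of a gamma-activated sequence, TTCNNNGAA, which read the same on both strands, occurred in the upstream window of Ifit2 and that of Bst2. They occurred in 8.30% of all windows, and in a window of 9.55% of all genes. A match is a description of letters and was not tested as a binding site.

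Levels of the 9 genes at baseline ran from near the median gene, for Bst2 and Isg15, to near the limit of detection, for Ifit1 and Ifit3. In RV Sham ventricles the order by RPKM (reads per kilobase of exon, scaled to library size) was Bst2 (4.17 ± 1.86), Isg15 (3.75 ± 0.931), Rsad2 (3.05 ± 0.483), Ifit2 (2.76 ± 0.356), Stat2 (1.96 ± 0.287), Irf9 (1.69 ± 0.192), Irf7 (0.823 ± 0.215), Ifit1 (0.522 ± 0.208) and Ifit3 (0.268 ± 0.201) (SD, n = 5). The mean ± SD ranges of neighbours in that order overlapped except between Ifit2 and Stat2 and between Irf9 and Irf7. Retained introns of annotated transcripts count as exon in these lengths. For Irf7 the length used, 3776 bases, spans the whole gene, which lowers its RPKM. The median over all genes tested was 4.26 RPKM in the RV and 4.31 RPKM in the LV, above the mean over both groups of each of the 7 response genes tested there. In RV nPAB ventricles Ifit2 stood at the top of the order, with 4.67 ± 1.21 RPKM (SD, n = 6), and its mean ± SD range overlapped those of Isg15, Bst2 and Rsad2.

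In the banded RV, Ifit2 rose, and it was the only response gene of the 7 tested that passed the threshold. The comparison asks which genes respond in the ventricle under pressure load. Of 13660 genes with a mean normalized count of at least 10, 22.0% passed the threshold in the RV (adjusted p under 0.05, limma with Benjamini-Hochberg adjustment), 11.1% higher and 10.8% lower in nPAB. Of the 9 response genes 7 were tested, and 1 of the 7 passed, Ifit2, higher in nPAB. Without Sham mouse 13 the number called was again 1. The median log2 fold change of the 7 was -0.05, beside 0.00 over all genes tested, and it was 0.10 without Sham mouse 13 and -0.20 without nPAB mice 6 and 7. None of the 7 had groups that did not overlap, against 12.9% of all genes tested.

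**Figure D1:**
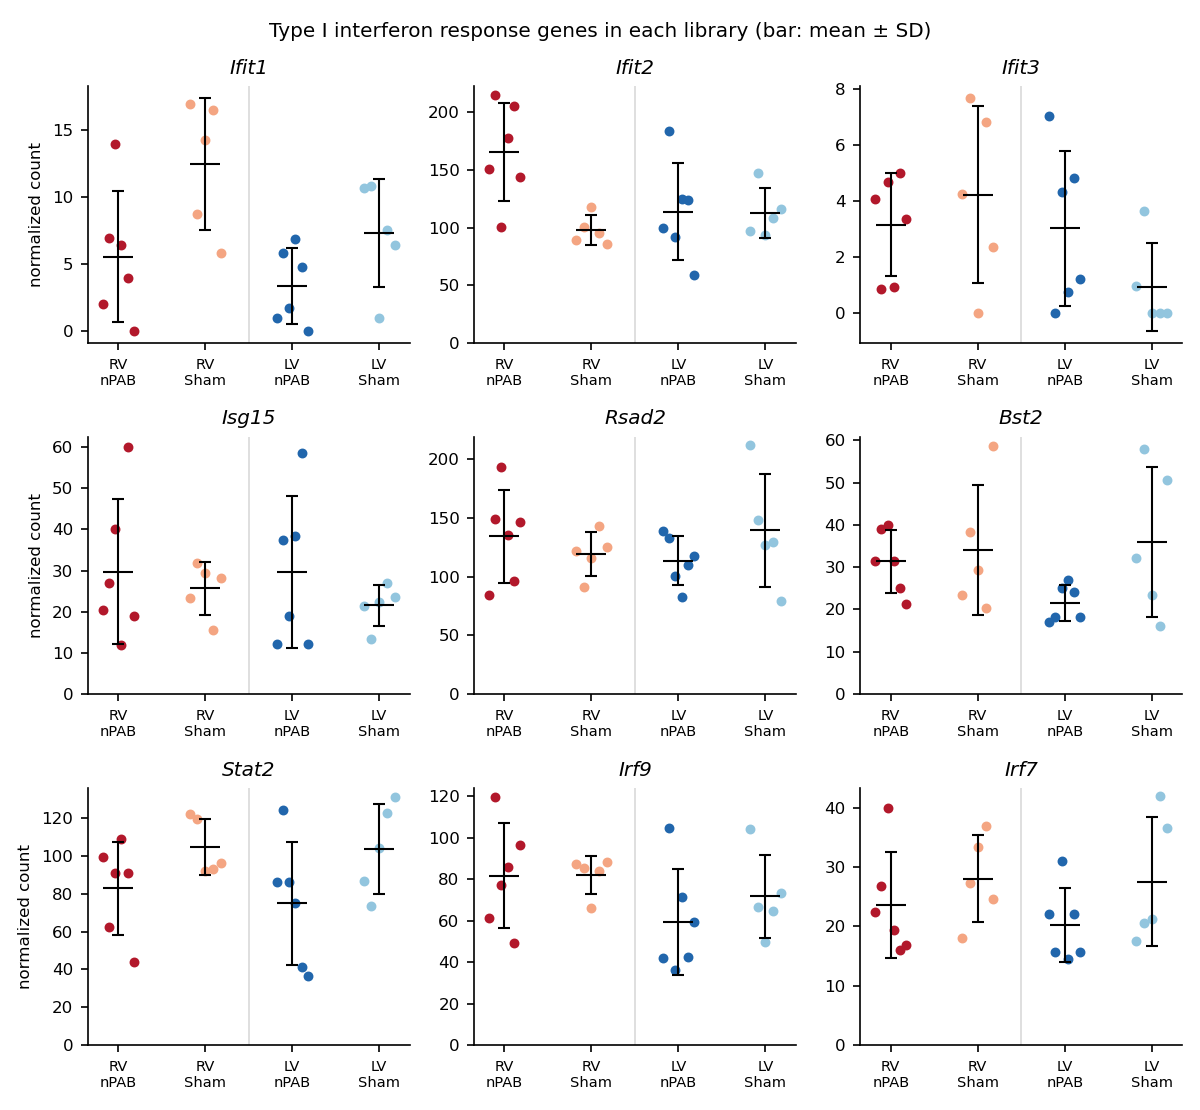
Normalized counts of the 9 response genes (linear axis from 0) in every library, in RV nPAB, RV Sham, LV nPAB and LV Sham, with the mean and SD of each group. In the RV, 5 of 6 nPAB libraries lie above every Sham library for Ifit2, while the other genes overlap more widely.

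Ifit2 encodes an effector with tetratricopeptide repeats that binds RNA and limits translation of viral messages. Its gene (ENSMUSG00000045932) lies on the plus strand of chromosome 19, from 34550694 to 34576419 (mm10, GENCODE). In RV nPAB its lowest, median and highest normalized counts were 101, 164 and 215. In RV Sham its values were 89.2, 101, 118, 95.3 and 85.7 in mice 9 to 13. The groups overlapped, since nPAB mouse 7, the lowest, fell inside the Sham range, while the other 5 nPAB mice lay above it. Ifit2 averaged 165 ± 42.6 in RV nPAB and 97.9 ± 12.8 in RV Sham (SD, n = 6 and n = 5), a ratio of means of 1.69. Its log2 fold change was 0.72 ± 0.19 (SE) with an adjusted p of 0.00960 (limma). Without nPAB mice 6 and 7 the log2 fold change was 0.78, with an adjusted p of 0.00455 (limma).

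The neighbours of Ifit2 in the Ifit cluster were set beside it. Ifit3 lies at 34583531 to 34588731 and Ifit1 at 34640871 to 34650009 on the same strand of chromosome 19, with Ifit1bl1, Ifit3b and Ifit1bl2 between them. Ifit1bl1, which was among the other interferon-stimulated genes listed, averaged 54.0 ± 23.6 in RV nPAB and 49.4 ± 15.4 in RV Sham (SD, n = 6 and n = 5). Its RV log2 fold change was 0.05, with an adjusted p of 0.941 (limma). Ifit1bl2 averaged 42.7 ± 14.2 in RV nPAB and 42.1 ± 20.3 in RV Sham. Ifit3b averaged 2.69 ± 2.93 in RV nPAB and 7.67 ± 5.78 in RV Sham, from 17 reads in all RV nPAB libraries and 37 reads in all RV Sham libraries.

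**Figure D2:**
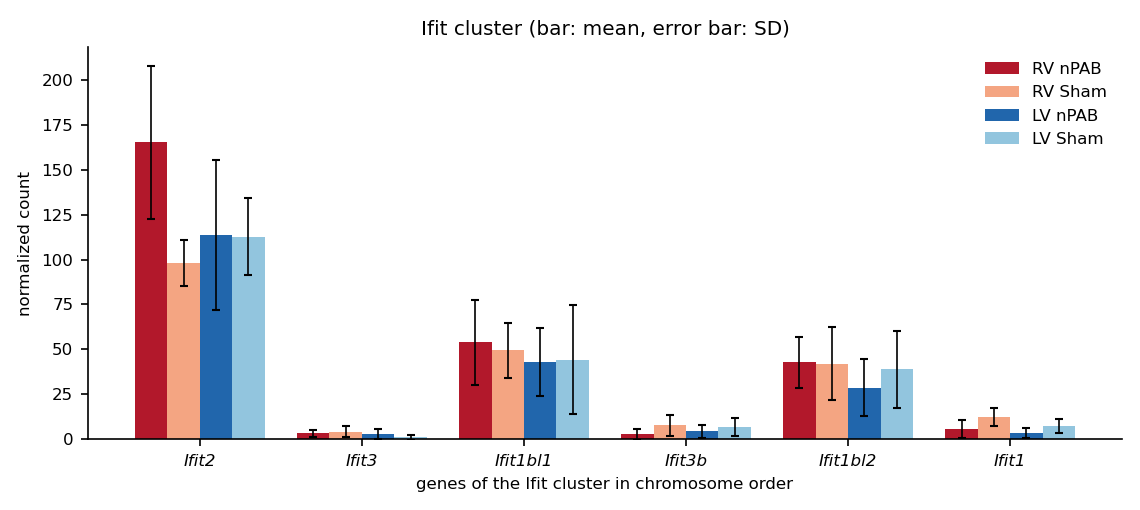
Mean normalized count (linear axis, error bars SD, n = 6 nPAB and n = 5 Sham mice) of the 6 genes of the Ifit cluster in chromosome order. Ifit2 has the tallest bars, with RV nPAB at 165 and RV Sham at 97.9, and Ifit1 has lower bars in nPAB than in Sham in both ventricles, at few reads.

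Ifit1 and Ifit3, which encode cap-sensing and adaptor proteins of the same family, were too low to be tested. Ifit1 gave 36 reads in all 6 RV nPAB libraries together and 64 reads in the 5 RV Sham libraries. Its RV normalized counts had a lowest, median and highest value of 0, 5.24 and 14.0 in nPAB, and were 17.0, 8.77, 14.3, 16.5 and 5.87 in Sham mice 9 to 13. The ranges overlapped, with 3 nPAB libraries below every Sham library. With no filter on low values its RV log2 fold change was -1.37 with an adjusted p of 0.169 (limma), so no change was detectable at this depth. nPAB mouse 11 had no Ifit1 read in either ventricle.

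Ifit3 gave 19 reads over the RV nPAB libraries and 20 reads over the RV Sham libraries. In the LV it gave 19 reads in nPAB and 4 reads in Sham, where 3 of 5 libraries were at 0. Ifit3 and its near-identical copy Ifit3b can share reads, so the split between them is uncertain. With no filter the log2 fold changes of Ifit3 were -0.14 in the RV (adjusted p = 0.916) and 1.02 in the LV (adjusted p = 0.513, limma for both).

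Among the other effectors, Isg15, a ubiquitin-like modifier, varied widely among banded mice. Its RV normalized counts had a lowest, median and highest value of 12.0, 23.6 and 60.0 in nPAB. They were 23.4, 31.8, 29.4, 15.6 and 28.2 in Sham mice 9 to 13. nPAB mouse 10 held the highest Isg15 count in both ventricles, 60.0 in the RV and 58.6 in the LV. The RV log2 fold change of Isg15 was 0.06 with a 95% interval of -0.71 to 0.83 and an adjusted p of 0.932 (limma).

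Rsad2 encodes viperin, an enzyme that makes a chain-terminating nucleotide. Its RV counts had a lowest, median and highest value of 84.5, 141 and 194 in nPAB, and were 122, 91.0, 116, 143 and 126 in Sham mice 9 to 13. Its RV log2 fold change was 0.13 (95% interval -0.29 to 0.55, adjusted p = 0.708, limma), and it was no longer positive without nPAB mice 6 and 7. Bst2 encodes tetherin, which holds budding virus at the cell surface. Its RV counts had a lowest, median and highest value of 21.3, 31.5 and 40.0 in nPAB, and were 23.4, 38.4, 29.4, 20.4 and 58.7 in Sham mice 9 to 13. The nPAB range of Bst2 lay inside the Sham range, and its log2 fold change was -0.05 (95% interval -0.68 to 0.59, adjusted p = 0.937, limma).

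The transcription factors had negative fold changes that did not pass the threshold. Stat2 counts in the RV had a lowest, median and highest value of 43.7, 91.1 and 109 in nPAB, and were 122, 119, 92.1, 93.4 and 96.2 in Sham mice 9 to 13. In 4 of 6 nPAB libraries Stat2 lay below every Sham library, and its log2 fold change was -0.39 (95% interval -0.85 to 0.08, adjusted p = 0.236, limma). Irf7 had a lowest, median and highest RV count of 16.0, 20.9 and 40.0 in nPAB, and 18.1, 27.4, 33.3, 37.0 and 24.6 in Sham mice 9 to 13. Its log2 fold change was -0.27 (95% interval -0.93 to 0.39, adjusted p = 0.590, limma). Irf9 averaged 81.6 ± 25.2 in RV nPAB and 82.0 ± 9.18 in RV Sham (SD, n = 6 and n = 5), with a log2 fold change of -0.06 (adjusted p = 0.882, limma). The annotation of Irf7 overlaps Phrf1 on the opposite strand by 45 bases and that of Irf9 overlaps Rnf31 by 123 bases, so reads there could belong to either gene.

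Marker lists of other cell types were read in the same RV comparison, where 11.1% of all genes rose and 10.8% fell. The summed normalized count of 7 epicardial and mesothelial markers lay between 428 and 687 in RV nPAB and between 191 and 367 in RV Sham, and 1 of the 7 (Krt8) passed the threshold, a rise. The sum of 8 atrial markers lay between 3709 and 16747 in RV nPAB and between 719 and 3114 in RV Sham, with Nppa higher and Nr2f1 lower past the threshold. Nppa is also known to be switched on in loaded ventricular myocytes. The sums of the remaining lists overlapped between the groups. Of 10 fibroblast markers 4 fell (Dpt, Col3a1, Fbln1 and Pdgfra), with sums of 59387 to 87834 in nPAB and 78990 to 105821 in Sham. Of 13 macrophage markers tested, 2 fell (Ccr2 and Cx3cr1). The sums over all 14 macrophage markers listed were 1587 to 2842 in nPAB and 1547 to 2893 in Sham. The 13 tested had a median log2 fold change of -0.09, and 6 of them were positive. Of 10 ventricular cardiomyocyte markers 2 rose and 3 fell, and of 10 endothelial markers 1 rose and 1 fell. All 6 erythroid markers tested were positive, with a median of 0.42, and 1 rose (Hbb-bt). The sums over all 7 erythroid markers listed lay between 9930 and 16840 in nPAB and between 9187 and 14654 in Sham. Of 15 markers of other leukocytes 4 could be tested and none passed. The sums over all 15 lay between 362 and 489 in nPAB and between 293 and 584 in Sham. The part of these lists in the Ifit2 result was not tested.

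In the LV, which is not banded, none of the 7 response genes tested passed the threshold. There 9.31% of 13528 genes passed (limma), and of the 7, 0 had an unadjusted p under 0.05, beside 24.6% of all genes. Groups that did not overlap were found for 6.53% of all genes tested and for none of the 7. edgeR and DESeq2 on whole reads called none as well. The median log2 fold change of the 7 was -0.32, beside -0.01 over all genes tested, and 6 of 7 were negative. Ifit2 averaged 114 ± 41.9 in LV nPAB and 113 ± 21.4 in LV Sham (SD, n = 6 and n = 5). Its LV counts had a lowest, median and highest value of 59.3, 112 and 183 in nPAB, and were 97.4, 147, 93.4, 109 and 116 in Sham mice 9 to 13. The nPAB libraries reached beyond the Sham range at both ends, and the log2 fold change was -0.05 (95% interval -0.53 to 0.44, adjusted p = 0.926, limma).

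Bst2 and Stat2 had the most negative LV fold changes. Bst2 counts in the LV had a lowest, median and highest value of 17.1, 21.1 and 26.9 in nPAB, and were 32.1, 58.0, 23.3, 16.1 and 50.6 in Sham mice 9 to 13. The nPAB values lay close together inside a wide Sham range, and the log2 fold change of Bst2 was -0.59 (95% interval -1.31 to 0.13, adjusted p = 0.300, limma). Stat2 counts in the LV had a lowest, median and highest value of 36.3, 80.8 and 125 in nPAB, and were 86.7, 73.7, 105, 123 and 131 in Sham mice 9 to 13. Its log2 fold change was -0.56 (95% interval -1.15 to 0.04, adjusted p = 0.235, limma). The remaining LV log2 fold changes were -0.40 for Irf7, -0.32 for Irf9, -0.24 for Rsad2 and 0.24 for Isg15, with adjusted p from 0.506 to 0.767 (limma). Without nPAB mice 6 and 7 the number of response genes called was again 1 in the RV and 0 in the LV.

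**Figure D3:**
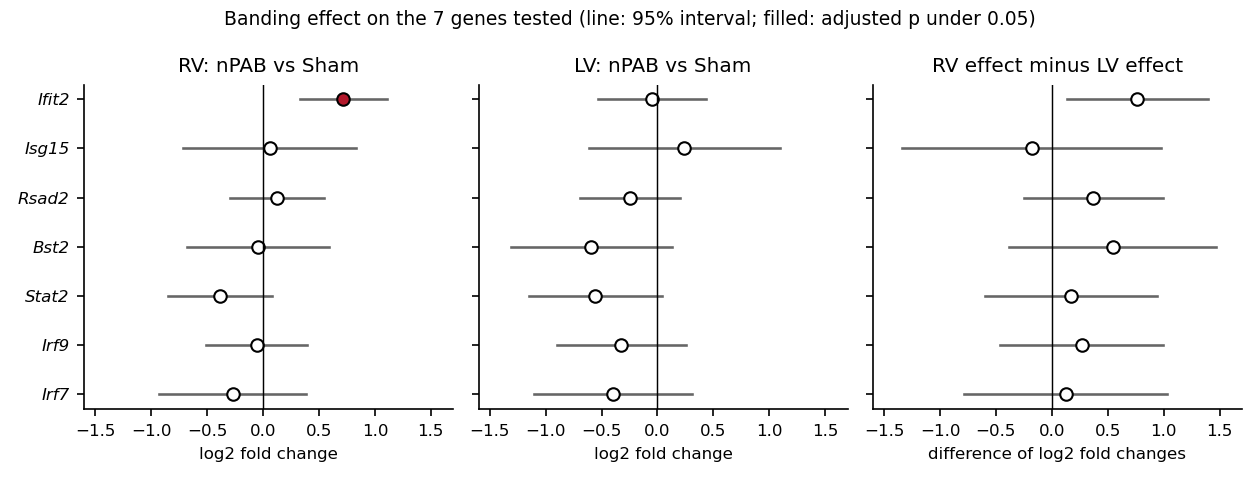
Log2 fold changes of nPAB over Sham (points) with 95% intervals (lines) for the 7 response genes tested in the RV and in the LV, and the RV effect minus the LV effect. The only filled point, past the threshold, is Ifit2 in the RV at 0.72.

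Whether banding acted differently in the 2 ventricles was tested as the RV effect minus the LV effect. Of 13364 genes 0.0374% passed in this comparison (limma, no pairing), and none of the 7 response genes did. Ifit2 had a difference of 0.76 ± 0.31 (SE) on the log2 scale, with a 95% interval of 0.13 to 1.39, an unadjusted p of 0.0192 and an adjusted p of 0.600 (limma). With the mouse as a block, which pairs the RV and LV of each labelled animal, the adjusted p of Ifit2 was 0.137. With the mouse as a block and without nPAB mice 6 and 7, the difference was 0.96 with an adjusted p of 0.0274 (limma), and 3.75% of 13356 genes passed. The Ifit2 call between ventricles therefore rests on the pairing and on leaving out the mice whose libraries differ in sex. The other 6 genes had differences between -0.18 for Isg15 and 0.54 for Bst2, with adjusted p of 0.874 or more (limma).

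RV and LV levels were compared after scaling the whole reads of both tables together, since the deposited tables were normalized separately. On that scale Ifit2 was higher in the RV than in the LV in 6 of 6 labelled nPAB mice, with RV over LV ratios from 1.07 in mouse 7 to 2.34 in mouse 11. It was higher in the RV in 1 of 5 Sham mice, with ratios from 0.668 to 1.22. The RV and LV libraries of nPAB mice 6 and 7 differ in sex, so neither of these labelled pairs can be 1 animal. Pairing them by sex sets 215 in RV mouse 6 against 95.1 in LV mouse 7. It also sets 101 in RV mouse 7 against 191 in LV mouse 6. The count of 6 of 6 thus holds only for the pairs as labelled. In a fit that did not pair the ventricles by mouse, the log2 fold change of RV over LV for Ifit2 was 0.53 ± 0.21 (SE) in nPAB mice (adjusted p = 0.365, limma). It was -0.23 ± 0.23 in Sham mice (adjusted p = 0.989, limma). In this unpaired fit 0.0293% of 13633 genes passed in nPAB mice and 0.0440% in Sham mice, with none of the 7 response genes in either. At an unadjusted p under 0.05, 1 of the 7 (Ifit2) was counted in nPAB mice, beside 10.1% of all genes, and none in Sham mice, beside 6.11% of all genes. Without nPAB mice 6 and 7, Ifit2 was higher in the RV in 4 of 4 nPAB mice, with ratios from 1.37 to 2.34. Paired by mouse with all labelled mice kept, Ifit2 did not pass in nPAB mice (adjusted p = 0.0698, limma). Paired by mouse and without nPAB mice 6 and 7, Ifit2 passed in nPAB mice with a log2 fold change of 0.73 and an adjusted p of 0.0183 (limma), beside 6.15% of 13602 genes.

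**Figure D4:**
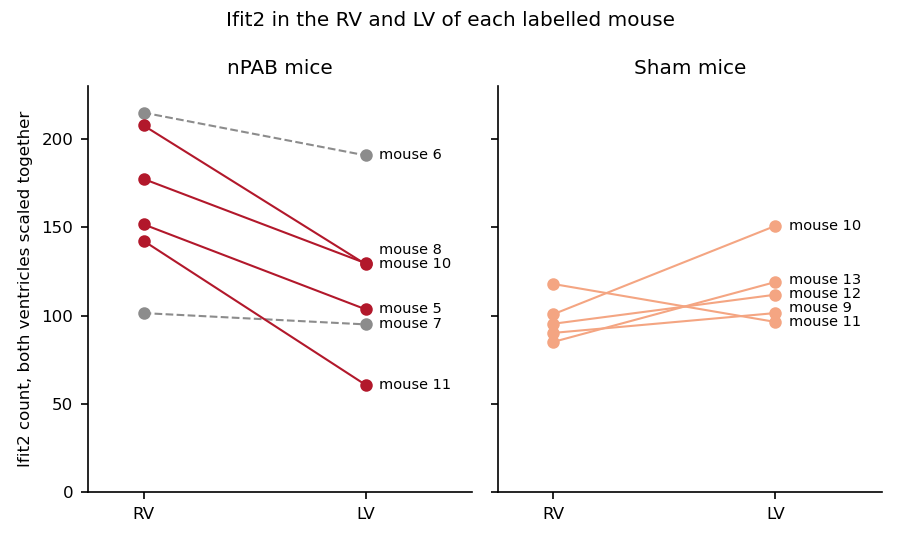
Ifit2 count (linear axis from 0, both ventricles scaled together) in the RV and LV of each labelled mouse, joined by a line, for 6 nPAB and 5 Sham mice. Dashed grey lines mark nPAB mice 6 and 7, whose RV and LV libraries differ in sex. All 6 nPAB lines, drawn by the labels, lie higher in the RV, as does 1 of the 5 Sham lines.

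The response genes varied little in step among the animals. After group means were removed, the correlation of each of the 7 genes with the mean of the other 6 over the 22 libraries lay between -0.17 for Rsad2 and 0.25 for Ifit2. Over the 18 libraries left without nPAB mice 6 and 7 it lay between -0.55 for Rsad2 and 0.43 for Ifit2. These libraries share mice in pairs, so the values are a description. The genes whose deviations were most like the mean of the 7 were Fam111a (r = 0.80), Xpo6 (0.80), Myh10 (0.79), Clic1 (0.78), Tagln2 (0.78), Sept10 (0.77), Eif2ak1 (0.76) and Emp1 (0.76), of 12141 genes ranked. None of these 8 was in an interferon list. The 44 other interferon-stimulated genes ranked had a median r of 0.27 and ran from -0.58 to 0.72, beside a median of -0.01 over all genes ranked.

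The wider pathway was read from lists of its ligands, receptor, sensors, targets and regulators. Of 18 type I interferon genes in the tables, 15 had no read in any of the 22 libraries, and Ifnab, Ifnk and Ifnz had 5 reads together. A count of 0 allows up to 3 reads in a library, or 0.265 to 0.422 per M reads, so transcripts of these 15 genes were not detectable at this depth, and these limits cover counting error only. Ifnar2, a receptor chain, had an RV log2 fold change of -0.32 that did not pass (adjusted p = 0.144, limma). In the LV the other receptor chain, Ifnar1, fell to 587 ± 59.7 in nPAB, against 720 ± 38.9 in Sham (SD, n = 6 and n = 5), a log2 fold change of -0.30 (adjusted p = 0.0368, limma). That value was -0.27 without nPAB mice 6 and 7 and no longer passed (adjusted p = 0.119, limma).

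Other interferon-stimulated genes moved in both directions in the RV. Of 44 tested, 5 rose (beside 11.1% of all genes), 6 fell (beside 10.8%) and 33 did not pass, and their median log2 fold change was -0.02. Ifitm3, a membrane protein that blocks viral entry, averaged 1835 ± 307 in RV nPAB and 1350 ± 69.7 in RV Sham (SD, n = 6 and n = 5), with a log2 fold change of 0.43 (adjusted p = 0.00416, limma). Isg20, an exonuclease, averaged 103 ± 18.4 in RV nPAB and 59.4 ± 13.5 in RV Sham, with a log2 fold change of 0.80 (adjusted p = 0.00724, limma). The RV groups of either gene did not overlap, as was so for 12.9% of all genes tested. Pml, the core protein of nuclear bodies, averaged 74.8 ± 7.66 in RV nPAB and 124 ± 26.4 in RV Sham, and fell by 0.70 on the log2 scale (adjusted p = 0.00803, limma). The RV groups of Pml did not overlap either, with a highest value of 85.3 in nPAB and a lowest of 88.0 in Sham. Trim21, an antibody receptor in the cytosol, averaged 32.6 ± 14.1 in RV nPAB and 74.6 ± 25.8 in RV Sham, and fell by 1.20 on the log2 scale (adjusted p = 0.00950, limma).

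The other 3 that rose in the RV were Parp9, Tor3a and Ifitm2, and the other 4 that fell were Phf11d, Parp14, Herc6 and Trim25. Without nPAB mice 6 and 7, 3 rose (beside 10.5% of all genes) and 7 fell (beside 9.93%). Without Sham mouse 13, 4 of 43 tested rose (beside 9.93%) and 2 fell (beside 9.02%). With no filter on low values 3 rose and 2 fell. Leaving out single mice gave 6 to 9 genes called, with 6 when Sham mouse 12 or Sham mouse 13 was left out and 7 when nPAB mouse 6, 8 or 11 or Sham mouse 10 was. In the LV, 1 of 45 rose (beside 4.76% of all genes) and 1 fell (beside 4.55%). Ifitm3 averaged 1457 ± 120 in LV nPAB and 1212 ± 78.6 in LV Sham (SD, n = 6 and n = 5), a log2 fold change of 0.26 (adjusted p = 0.0367, limma). Ddx60, an RNA helicase, averaged 14.6 ± 5.14 in LV nPAB and 41.1 ± 13.8 in LV Sham, and fell by 1.45 on the log2 scale (adjusted p = 0.0126, limma). The LV median over the 45 was -0.16. Without nPAB mice 6 and 7, 3 of these genes fell in the LV (beside 2.35% of all genes) and none rose (beside 2.58%), so Ifitm3 no longer passed.

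Genes of the type II branch, which answers interferon gamma, had mostly negative fold changes in the RV, by an amount that 1 Sham mouse moved. Of 16 tested, 4 fell (beside 10.8% of all genes) and 1 rose (beside 11.1%), and the median log2 fold change was -0.65, beside 0.00 over all genes. The chemokine Cxcl9 stood at 534 in RV Sham mouse 13, against 6.37 to 23.8 in the other 4 RV Sham mice, and its lowest, median and highest counts in RV nPAB were 0.867, 14.0 and 89.6. The GTPase Iigp1 stood at 602 in RV Sham mouse 13 and at 92.4 to 159 in the other 4, with 44.9, 51.8 and 152 in RV nPAB. The LV of the same mouse held 306 for Cxcl9 and 445 for Iigp1, above the other 4 LV Sham mice. Without Sham mouse 13 the RV median of the 16 was -0.38, with 2 lower (beside 9.02% of all genes) and 1 higher (beside 9.93%) past the threshold. The median was -0.55 without nPAB mice 6 and 7, with 4 lower (beside 9.93% of all genes) and none higher (beside 10.5%).

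Ifngr2, a chain of the interferon gamma receptor, averaged 1888 ± 224 in RV nPAB and 2416 ± 165 in RV Sham (SD, n = 6 and n = 5), with a log2 fold change of -0.36 (adjusted p = 0.00474, limma). Gbp7, a guanylate-binding GTPase, averaged 270 ± 33.3 in RV nPAB and 382 ± 77.7 in RV Sham, with a log2 fold change of -0.49 (adjusted p = 0.0124, limma). These were the 2 that still passed lower without Sham mouse 13. Gbp5, of the same family, had a log2 fold change of -1.07 (adjusted p = 0.0257), which was -0.96 without Sham mouse 13 (adjusted p = 0.0715, limma for both). Irgm1, an immunity-related GTPase, had a log2 fold change of -0.60 (adjusted p = 0.0363), which was -0.45 without Sham mouse 13 (adjusted p = 0.119, limma for both). Ifngr1, the other receptor chain, rose by 0.35 on the log2 scale, and without nPAB mice 6 and 7 its value was 0.30 (adjusted p = 0.131, limma). The monocyte and macrophage marker Ccr2 fell in the same libraries by 1.41 on the log2 scale. Cx3cr1 fell by 1.00, but did not pass without nPAB mice 6 and 7 (adjusted p = 0.188) or without Sham mouse 13 (adjusted p = 0.108, limma for both). The median over the 13 macrophage markers was -0.09, with 6 positive, and their part in the type II values was not tested.

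In the LV, 2 of 15 type II genes fell (beside 4.55% of all genes) and none rose (beside 4.76%), with a median of -0.45 beside -0.01 over all genes. Without Sham mouse 13 the LV median was -0.21 with 1 lower (beside 3.82% of all genes). Without nPAB mice 6 and 7 it was -0.55 with 1 lower (beside 2.35%), and the gene was Ifngr2 in both. Ifngr2 averaged 1725 ± 195 in LV nPAB and 2359 ± 298 in LV Sham, with a log2 fold change of -0.45 (adjusted p = 0.00498, limma). Gbp7 averaged 252 ± 54.3 in LV nPAB and 378 ± 59.4 in LV Sham, with a log2 fold change of -0.60 (adjusted p = 0.0171), and it did not pass without Sham mouse 13 (adjusted p = 0.0530) or without nPAB mice 6 and 7 (adjusted p = 0.0587, limma for all). Between ventricles, no type II gene passed in the test of the RV effect minus the LV effect.

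Sensors before interferon and genes listed as negative regulators were read in the same way. Of 12 sensors and adaptors tested in the RV, 1 rose (beside 11.1% of all genes) and none fell (beside 10.8%). Traf3, an adaptor before the interferon kinases, averaged 339 ± 47.0 in RV nPAB and 248 ± 58.0 in RV Sham, with a log2 fold change of 0.47 (adjusted p = 0.0299, limma). It was 0.46 without nPAB mice 6 and 7 and did not pass (adjusted p = 0.0792, limma). In the LV none of 13 passed, beside 9.31% of all genes. Tmem173, the adaptor STING, had the smallest p there, with a log2 fold change of -0.67 (adjusted p = 0.0779, limma). Of 8 genes listed as negative regulators, 2 fell in the RV (beside 10.8% of all genes) and 1 in the LV (beside 4.55%). None rose, beside 11.1% of all genes in the RV and 4.76% in the LV. Whether each listed gene holds the response in check in these hearts was not tested. Fbxw7, a ubiquitin ligase subunit, averaged 531 ± 127 in RV nPAB and 899 ± 100 in RV Sham, and fell by 0.79 on the log2 scale (adjusted p = 0.000778, limma). In the LV Fbxw7 fell by 0.36 (adjusted p = 0.0298), but did not pass without nPAB mice 6 and 7 (adjusted p = 0.113) or without Sham mouse 13 (adjusted p = 0.0588, limma for all). Pias1, a SUMO ligase, had an RV log2 fold change of -0.39 (adjusted p = 0.0115, limma).

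**Figure D5:**
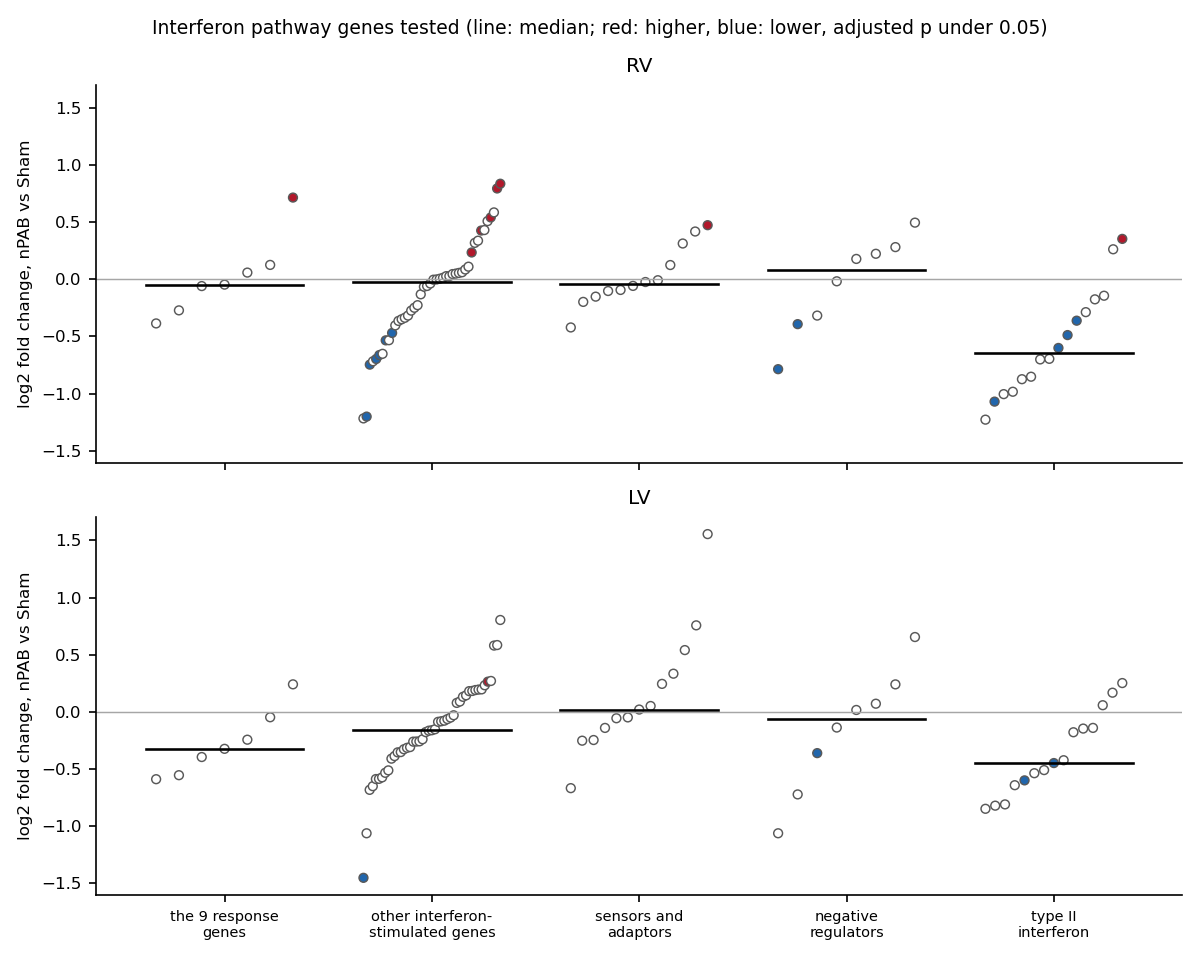
Log2 fold changes of nPAB over Sham for every tested gene of 5 interferon lists in the RV (top) and the LV (bottom), with the list median as a line and genes past the threshold in red (higher) or blue (lower). In the RV, 1 of 7 response genes is red, the other interferon-stimulated genes hold 5 red and 6 blue points, and the type II list has its median at -0.65 (-0.38 without Sham mouse 13).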

How the data were processed

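Bulk RNA was extracted with a Qiagen RNeasy Plus Mini column kit and sequenced from Revelo RNA-Seq High Sensitivity libraries, per the labels' protocols. Per the submitters' processing notes, cutadapt, featureCounts and DESeq2 were used with mm10; a strand setting is not given in the sources used here. Per the labels, the authors deposited 1 table per ventricle of DESeq2-normalized counts, a signal that is never negative, so each ventricle has its own scaling. Each header holds empty cells before its 11 sample names, which were read in order. Dividing by the value of 1 read gave whole numbers for 100% of values (tolerance 0.001), hence whole reads and a depth of 7.11 to 11.3 M reads.

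Symbols were found in GENCODE vM21 (mm10) for 49326 of 49671 LV genes and 49325 of 49670 RV genes, and gene coordinates are from there. Tests used limma 3.58.1 in R 4.3.3, with trend and robust options, on log2(value + 1) for genes whose mean was 10 or more. They were two-sided, and Benjamini-Hochberg adjustment ran over all genes tested at a threshold of 0.05. Fold changes on this scale understate those of low genes. Levels across ventricles used whole reads of both tables scaled together by TMM. RPKM used the union of exons over all annotated transcripts, those with retained introns included. edgeR 4.0.16 and DESeq2 1.42.0 on whole reads were alternatives, and the tests were checked on simulated counts.

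The response genes, lists and tests were chosen with earlier results of these data known. Genes named are all 9 response genes, up to 4 called genes with the smallest p per list (or the 1 with the smallest p where none passed), and the 8 genes most like them; Ifit1bl1, Ifit1bl2 and further called genes were added after their values were seen. RV and LV numbers pair libraries of 1 animal by the labels; deviations from group means over 12899 autosomal genes correlated at 0.0548 (nPAB mouse 7) to 0.383, with a median of 0.198. Intervals cover the spread between animals only. Counts over the receptor and signalling list are not reported here.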

Additional observations from a re-analysis of the deposited data

Results flagged for a closer look

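Among 36 sets of libraries (9 genes in 4 groups), 2 held a library far from the others by Dixon's ratio of gap to range; chance alone gives about 1 such set in 20. Ifit3 in LV Sham was highest in mouse 10, with a normalized count of 3.62, and the next library stood at 0.974. Irf9 in RV Sham was lowest in mouse 11, with a normalized count of 65.9, and the next library stood at 83.7.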

How the results depend on the processing

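Over 22 alternatives in each ventricle, Ifit2 stayed past the threshold in the RV (log2 fold change 0.63 to 0.85, adjusted p 0.00125 to 0.0266, limma, edgeR or DESeq2), and no response gene passed in the LV. Over 24 alternatives in each comparison between ventricles, none passed except under the replicate block without nPAB mice 6 and 7, where the count was 1 (Ifit2) for the RV effect minus the LV effect and 1 (Ifit2) for RV nPAB over LV nPAB. With the replicate block and all mice the Ifit2 values were 0.76 (adjusted p = 0.137) and 0.53 (adjusted p = 0.0698), and the block changed no other call of a response gene. The cause was not tested. The other interferon-stimulated genes called in the RV numbered 11, against 5 with no filter, where more genes were tested, and 7 without trend and robust options; in the LV they numbered 2, against 1 under either. All genes called in the LV numbered 1260, against 739 without trend and robust options and 668 without nPAB mice 6 and 7. For the RV effect minus the LV effect 5 genes were called, against 148 with the replicate block, 501 with it and without nPAB mice 6 and 7, 34 with DESeq2, and 0 to 10 when single mice were left out. For RV over LV, the counts were 4 in nPAB (417 with the block) and 6 in Sham (115 with the block). Type II genes called numbered 5 in the RV, against 3 with no filter or without trend and robust options, 2 without nPAB mouse 11, 3 without nPAB mouse 6 or Sham mouse 10, 11 or 13, and 4 without any other single mouse; in the LV they numbered 2, against 1 without trend and robust options, without nPAB mice 6 and 7 or without Sham mouse 13. Leaving out 1 of 11 mice at a time also ended some single-gene calls, in the RV for Irgm1 in 7 cases, Ifngr1 in 6, Gbp5 in 5, Traf3 in 4, Cx3cr1 in 8 and Pdgfra in 6, and in the LV for Ifitm3 in 7, Ifnar1 in 8, Fbxw7 in 7 and Gbp7 in 1. Signs of genes not called also moved, in the RV for Bst2 and Isg15 in 4 alternatives each and for Irf9 in 2, and in the LV for Ifit2 in 4. The RV sign of Rsad2 moved too: without nPAB mice 6 and 7, 1 of 7 response genes (Ifit2) was positive, against 3 with all mice. Depth limits Ifit1 and Ifit3, at 4 to 64 reads per group, which were tested only with no filter.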
